A study of Homo sapiens with 24 samples.

Results

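Wild-type HT-29 cells given 7-fluorotryptamine (7FTA) together with the cytokine TNFα were compared with wild-type HT-29 cells given TNFα alone. The 6 libraries, 3 per group, are those of 24 in the series whose labels give a wild-type genotype and either of these treatments. HT-29 is an established human line of epithelial cells from a colon cancer, and 7FTA is tryptamine carrying a fluorine atom on its indole ring. Cells seeded at 500000 per well were exposed for 8 h to 10 ng/mL TNFα, without or with 50 µM 7FTA, and poly(A)-selected RNA was sequenced as single-end reads of 100 bases. Further sets of 3 libraries serve as references: wild-type cells with 0.1% DMSO or with 50 µM 7FTA and no TNFα, and GPRC5A knock-out HT-29 cells with TNFα alone or with TNFα and 7FTA, all at 8 h. Knock-out cells with 0.1% DMSO were used to define the genes that respond to TNFα. The labels name DMSO for the DMSO groups only, so whether the wells with TNFα or 7FTA held the same vehicle is not stated. The labels also do not say how the knock-out was made, whether it is a single clone, or whether replicates were separate cultures; p-values therefore measure the spread between these libraries, which may be technical.

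TNFα is a cytokine of inflamed gut. It binds receptors on epithelial cells and, through IκB kinase, releases the transcription factor NF-κB, which switches on chemokines that draw in leukocytes, adhesion molecules, and its own inhibitors NFKBIA and TNFAIP3. Tryptamine and other indoles, which gut microbes make from tryptophan, can act on the aryl hydrocarbon receptor (AhR). With its partner ARNT this ligand-activated transcription factor binds DNA at sites with the core letters GCGTG and raises detoxification genes such as CYP1A1. SREBP proteins switch on the genes of cholesterol and fatty acid synthesis, and NRF2 those of the defence against oxidants and reactive chemicals. Interferon-stimulated genes act against viruses and in inflamed epithelium follow STAT and IRF factors.

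Of 14059 genes tested, 421 were higher and 358 lower with 7FTA added to TNFα, at an adjusted p under 0.05 (edgeR quasi-likelihood test, Benjamini-Hochberg adjustment), which is 2.99% and 2.55% of the genes, or 5.54% together. Most of these differences were small. The median size of a called change was 0.253 on the log2 scale, and 36 genes, 21 higher and 15 lower, changed at least 2-fold. Without TNFα replicate 2, which also had the highest share of mitochondrial reads (1.15%, against 0.604% as the lowest of the 6), 503 genes were called; without replicate 3 of TNFα with 7FTA, 509 were called. The part of mitochondrial share in the calls was not tested. In the first principal component of the 6 libraries, which held 26.9% of the variance, the TNFα libraries lay at -14.1, -14.4 and -15.4 and the libraries with 7FTA at 15.8, 10.8 and 17.3.

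The 6 libraries held 17132158 to 21958864 counts, and those of the whole series 16782857 to 27247407. Levels are CPM, counts relative to library size after TMM scaling, in replicate order, and differences are log2 fold changes with their standard error (SE). Epithelial markers were present at 1 CPM or more for 13 of 14 genes, with summed levels of 18915.8 to 20178.1 CPM with TNFα and 20510.7 to 21340.3 CPM with 7FTA added. Of 14 immune-cell markers 11 were under 1 CPM, and CD3E, CD3D, MS4A1, CSF1R and NKG7 had no count in the 6 libraries. The other 3, CD14, LYZ and ITGAM, were at 1 CPM or more in all 6. Summed levels of the immune list were 1648.5 to 1718.6 CPM with TNFα and 1624.0 to 1639.6 CPM with 7FTA added. Of 10 fibroblast markers 8 were under 1 CPM, with COL1A2, DCN and THY1 at 0. Of 8 endothelial markers 6 were under 1 CPM. ESAM, at 1 CPM or more in all 6 libraries, was called higher with 7FTA added (log2 fold change 0.32, adjusted p = 0.000105, edgeR). The part of the higher epithelial sum in the results was not tested. GPRC5A, the orphan receptor that the other genotype lacks by label, was at 243, 243 and 249 CPM with TNFα and at 249, 231 and 248 CPM with 7FTA added (log2 fold change -0.02 ± 0.04 SE, adjusted p = 0.889, edgeR). In the knock-out cells its transcript was still counted, at a mean of 77.9 CPM with TNFα and the same mean with 7FTA added.

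CYP1A1, which oxidises polycyclic aromatic compounds and is the classic AhR target, had the largest increase of the genes described here. Together with UGT1A6, a glucuronidating enzyme, it shows the AhR core in the 250 bases before its start. Both promoters are printed 5′ to 3′ on the gene's own strand (RefSeq, GRCh38.p14), with GCGTG in capitals. CYP1A1 lies on the minus strand at chr15:74725529-74725778 with the core at position -57 from the start, and UGT1A6 on the plus strand at chr2:233691452-233691701 with the core at -200.
CYP1A1: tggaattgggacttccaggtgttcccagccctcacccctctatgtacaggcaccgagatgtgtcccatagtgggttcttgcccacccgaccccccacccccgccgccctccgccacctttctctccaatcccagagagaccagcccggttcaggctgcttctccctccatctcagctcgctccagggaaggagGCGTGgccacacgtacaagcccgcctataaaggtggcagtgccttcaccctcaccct
UGT1A6: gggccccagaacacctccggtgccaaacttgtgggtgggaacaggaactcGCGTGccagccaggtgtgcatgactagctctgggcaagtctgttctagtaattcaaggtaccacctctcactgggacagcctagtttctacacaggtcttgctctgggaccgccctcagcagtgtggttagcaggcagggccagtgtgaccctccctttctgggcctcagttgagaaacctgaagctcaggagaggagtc
The core GCGTG, searched on both strands, was found in 45.2% of the 10068 tested genes with a promoter sequence and in 42.4% of those called higher. It was found in 6 of the 10 AhR targets with a promoter sequence, among them AHRR and SLC7A5, which were not called. The longer AhR element TNGCGTG, where N is any base, was found in 6.0% of all and 4.45% of those called higher. Of the 10 AhR targets 2, AHRR and UGT1A6, held it. A match is a description of letters and no evidence of binding.

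Among 12 tested AhR targets, 8 were higher and 0 lower, with a median log2 fold change of 0.40. List counts for 7FTA added to TNFα in wild-type cells, here and below, are read against 2.99% higher and 2.55% lower over all genes. In each list described here with 0 calls in a direction, DESeq2 also called 0 there and at most 3 members had an unadjusted p under 0.05 (edgeR). The CYP1A1 gene (chr15:74719542-74725610, GRCh38, GENCODE 29) had 5, 6 and 0 counts with TNFα and 98, 160 and 107 counts with 7FTA added. Every library with 7FTA stood above every library without it, and the ratio of scaled counts was 31.1 (95% interval 17.2 to 62.8, counting error only; edgeR adjusted p = 1.64e-16). CYP1A2, a sister enzyme, was near the limit of detection, with 0, 1 and 0 counts against 10, 6 and 3 (ratio 17.8, interval 2.83 to 739.7, adjusted p = 0.0244 by edgeR). Its interval is wide because a single count stands behind the lower group, and its call was lost without TNFα replicate 1 or 3 and without replicate 1 of TNFα with 7FTA.

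CYP1B1 (chr2:38066973-38109902), a related monooxygenase, was at 2.89, 2.58 and 3.58 CPM with TNFα and at 8.68, 10.4 and 9.27 CPM with 7FTA added. The groups did not overlap, and the difference was 1.66 ± 0.12 (log2, SE), or 3.16-fold (edgeR adjusted p = 2.91e-14). ALDH3A1 (chr17:19737984-19748943), which oxidises aldehydes, was at 16.6, 15.6 and 15.6 CPM and rose to 45.4, 43.8 and 39.9 CPM. That is 2.7-fold, again without overlap (1.44 ± 0.07, adjusted p = 5.73e-20, edgeR).

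The other called targets of the receptor changed less. NQO1, a quinone reductase that NRF2 also controls, was at 679.6, 696 and 725 CPM against 857, 1028 and 922 CPM (log2 0.42 ± 0.06). UGT1A6 was at 8.56, 8.53 and 9.47 CPM against 11.0, 12.6 and 12.4 CPM (0.45 ± 0.10); its reads may be split with other UGT1A genes that use the same last exons. EREG, a ligand of the EGF receptor, was at 189, 164 and 165 CPM against 249, 209 and 222 CPM (0.39 ± 0.05). TIPARP, which ADP-ribosylates AhR and curbs it, was at 82.5, 77.9 and 79.3 CPM against 95.5, 85.7 and 90.0 CPM (0.18 ± 0.05, adjusted p = 0.03, edgeR). In each of these 4 genes the lowest library with 7FTA was above the highest without it. The call of TIPARP was lost without TNFα replicate 2 or 3 and without replicate 1 or 3 of TNFα with 7FTA, and that of EREG with the compared groups alone. The AHR transcript itself differed by -0.01 (adjusted p = 0.974), that of the repressor AHRR by -0.02 (0.984), UGT1A1 by 0.19 (0.0859) and SLC7A5, an amino acid transporter, by -0.06 (0.44), none of which passed the test (edgeR).

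**Figure D1:**
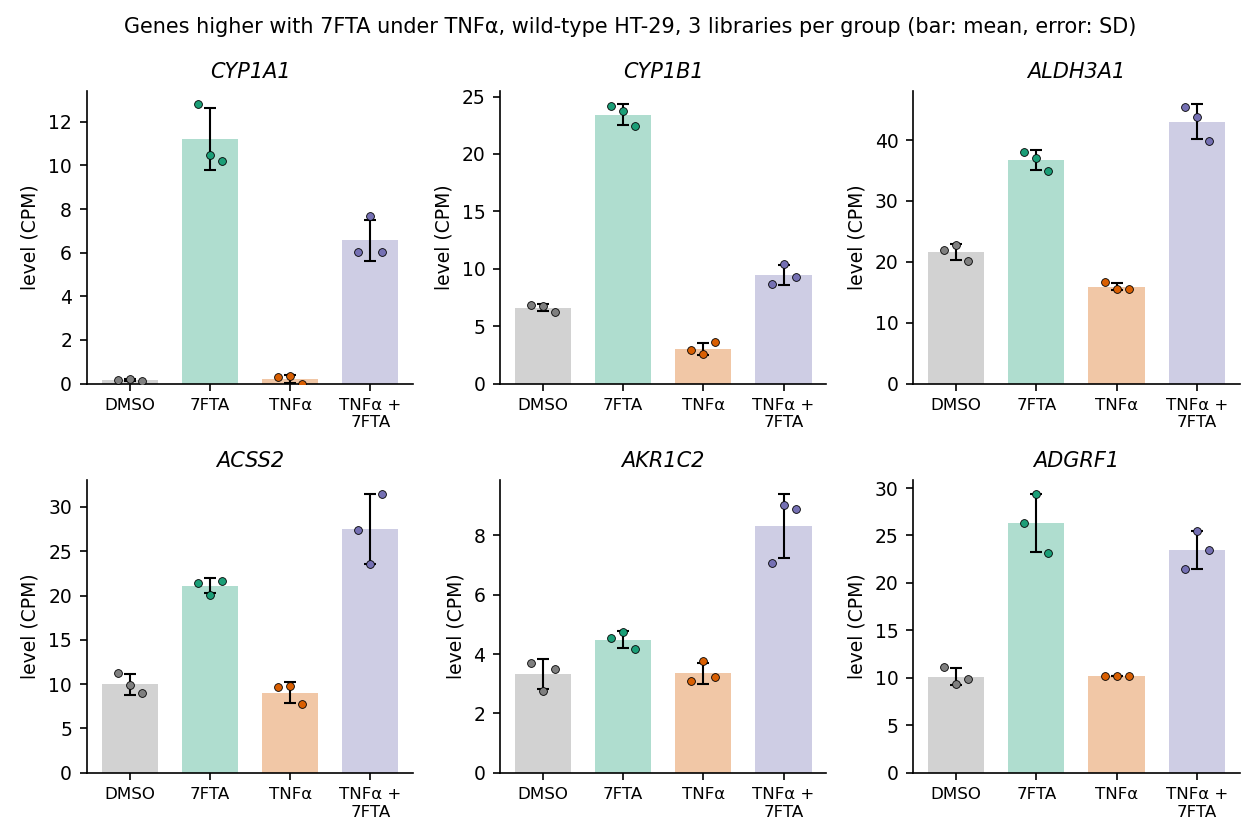
Levels in CPM (vertical axes, linear and starting at 0) of CYP1A1, CYP1B1, ALDH3A1, ACSS2, AKR1C2 and ADGRF1 in the 4 wild-type groups. Points are libraries, bars the mean of 3 and error bars the SD. In all 6 genes the libraries with TNFα and 7FTA lie above those with TNFα alone, for example 39.9 to 45.4 CPM against 15.6 to 16.6 CPM for ALDH3A1.

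Most genes that make cholesterol were called higher. Of 25 tested genes of cholesterol synthesis and uptake, 18 were higher and 0 lower, with a median of 0.24, and in 22 of the 25 the 2 groups did not overlap. Over all genes 21.1% did not overlap, 10.7% above and 10.4% below. MVD, which makes isopentenyl diphosphate, was at 79.0, 79.2 and 78.2 CPM with TNFα and at 113, 112 and 122 CPM with 7FTA added (0.55 ± 0.05, adjusted p = 1.23e-12, edgeR). FDPS, which joins isoprene units into farnesyl diphosphate, was at 202, 199 and 191 CPM against 258, 265 and 270.5 CPM (0.42 ± 0.04). Neither gene overlapped between groups.

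LSS, which closes the sterol rings, rose by 0.48, ACAT2, which makes acetoacetyl-CoA, by 0.44, and INSIG1, which holds SREBP in the endoplasmic reticulum when sterol is plentiful, by 0.39 on the log2 scale. SREBF2, which encodes the main sterol-controlled SREBP, rose by 0.15 (adjusted p = 0.00787, edgeR). STARD4, a sterol carrier, differed by 0.01 and did not pass the test (adjusted p = 0.96, edgeR).

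Of 12 tested genes of fatty acid synthesis, 6 were higher and 0 lower, with a median of 0.26. ACSS2 (chr20:34872146-34927962), which makes acetyl-CoA from acetate, was at 9.66, 9.82 and 7.71 CPM with TNFα and at 27.4, 23.6 and 31.5 CPM with 7FTA added. This was a 3.02-fold difference without overlap (1.59 ± 0.10, adjusted p = 3.36e-17, edgeR). SCD, the desaturase that makes oleate, was at 2398, 2352 and 2436 CPM against 3315, 3211 and 3437 CPM (0.47 ± 0.04, or 1.39-fold). ME1, which makes NADPH from malate, rose by 0.36, LPIN1, a phosphatidate phosphatase, by 0.37, and SREBF1 by 0.24. FASN, the fatty acid synthase, differed by 0.28 and did not pass the test (adjusted p = 0.0909, edgeR).

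Of 19 genes of lipid droplets and of the receptors PPAR and LXR, 4 were higher and 0 lower. PPARG, the lipid-sensing nuclear receptor, was at 56.0, 55.0 and 58.0 CPM against 74.4, 77.3 and 76.2 CPM (0.43 ± 0.05). ABCG1, a sterol exporter under LXR, was at 17.4, 16.7 and 19.3 CPM against 24.4, 25.8 and 24.4 CPM (0.48 ± 0.08). Both were separate between the groups. Of 26 genes of lysosome and autophagy, 7 were higher and 0 lower, among them the sialidase NEU1 (0.36), the autophagy receptor SQSTM1 (0.24) and the cholesterol exporter NPC1 (0.21).

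Of 26 tested NRF2 targets, 16 were higher and 0 lower, with a median of 0.24. FTH1, the heavy chain of the iron store ferritin, was at 2734, 2683 and 2816 CPM with TNFα and at 3749.8, 3839 and 3832 CPM with 7FTA added (0.47 ± 0.03, adjusted p = 8.55e-18, edgeR). FTL, the light chain, was at 2454, 2441 and 2597 CPM against 3088, 3318 and 3186 CPM (0.36 ± 0.03). The groups were separate for both chains, though ferritin reads can be shared with processed pseudogenes.

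AKR1C2 (chr10:4987400-5018031), a ketosteroid reductase, was at 3.08, 3.76 and 3.22 CPM and rose to 7.08, 9.01 and 8.87 CPM (1.31 ± 0.14, or 2.48-fold, adjusted p = 1.83e-09, edgeR). AKR1C1 was at 8.49, 7.51 and 9.53 CPM against 13.8, 18.0 and 15.9 CPM (0.92 ± 0.10), and AKR1B10, which reduces retinal and other aldehydes, at 56.8, 54.9 and 59.2 CPM against 106, 116 and 102 CPM (0.92 ± 0.07). All 3 were separate between the groups, and AKR1C1, AKR1C2 and AKR1C3 are near-identical copies among which the counting may have divided reads. Over the list of aldo-keto reductases and aldehyde dehydrogenases, 8 of 17 were higher and 0 lower, with a median of 0.08. Lists share members. Of its called genes, AKR1C1, AKR1C2, AKR1C3 and AKR1B10 are also counted as NRF2 targets. ALDH3A1 is also counted as an AhR target and ALDH1A3 as a retinoic acid gene. NQO1 is counted among both AhR and NRF2 targets, and ME1 among both fatty acid synthesis genes and NRF2 targets. HMOX1, the heme oxygenase, was at 7.51, 5.26 and 6.98 CPM against 9.91, 9.34 and 9.27 CPM (0.54 ± 0.12), and GCLM, the modifier subunit of glutathione synthesis, rose by 0.31. The catalytic partner GCLC differed by 0.04 (adjusted p = 0.709) and TXNRD1, a thioredoxin reductase, by 0.09 (0.165), which did not pass the test (edgeR).

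Other genes among the largest increases encode receptors, cornified-envelope proteins and retinoid enzymes. ADGRF1, an adhesion-type G protein-coupled receptor, was at 10.2 CPM in all 3 TNFα libraries and at 21.5, 25.5 and 23.5 CPM with 7FTA added (1.21 ± 0.09, adjusted p = 9.87e-14, edgeR). VIPR1, a receptor for vasoactive intestinal peptide, was at 14.2, 14.5 and 13.0 CPM against 31.4, 30.8 and 32.8 CPM (1.18 ± 0.08). SPRR1B, an envelope protein of squamous cells, was at 7.94, 6.49 and 6.98 CPM against 17.4, 14.2 and 16.8 CPM (1.17 ± 0.14). The 3 genes were separate between the groups, with the reads of SPRR1B possibly shared with its close copy SPRR1A.

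ALDH1A3, which makes retinoic acid, was at 30.8, 25.4 and 26.6 CPM against 62.0, 50.8 and 53.7 CPM (1.01 ± 0.10), and DHRS9, a retinol dehydrogenase, was at 7.33, 7.4 and 8.13 CPM against 16.2, 12.0 and 14.1 CPM (0.88 ± 0.12). Both were separate between the groups. Of 15 retinoic acid genes 4 (26.7%) were higher and 1 (6.67%) lower, against 2.99% and 2.55% over all genes. The lower gene was the transglutaminase TGM2 (-0.17), a call lost without TNFα replicate 1 and without replicate 2 of TNFα with 7FTA. GPRC5C, a relative of the receptor GPRC5A, was at 12.0, 11.2 and 10.6 CPM against 15.3, 17.2 and 16.8 CPM (0.55 ± 0.09). Of 11 genes of tryptophan and tryptamine handling, 1 (9.09%) was higher, against 2.99% over all genes. That gene was SLC22A3, an organic cation transporter, at 3.39, 4.61 and 4.07 CPM against 7.01, 5.37 and 6.16 CPM (0.60 ± 0.15, adjusted p = 0.00645, edgeR). The call was lost without replicate 1 of either group.

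**Figure D2:**
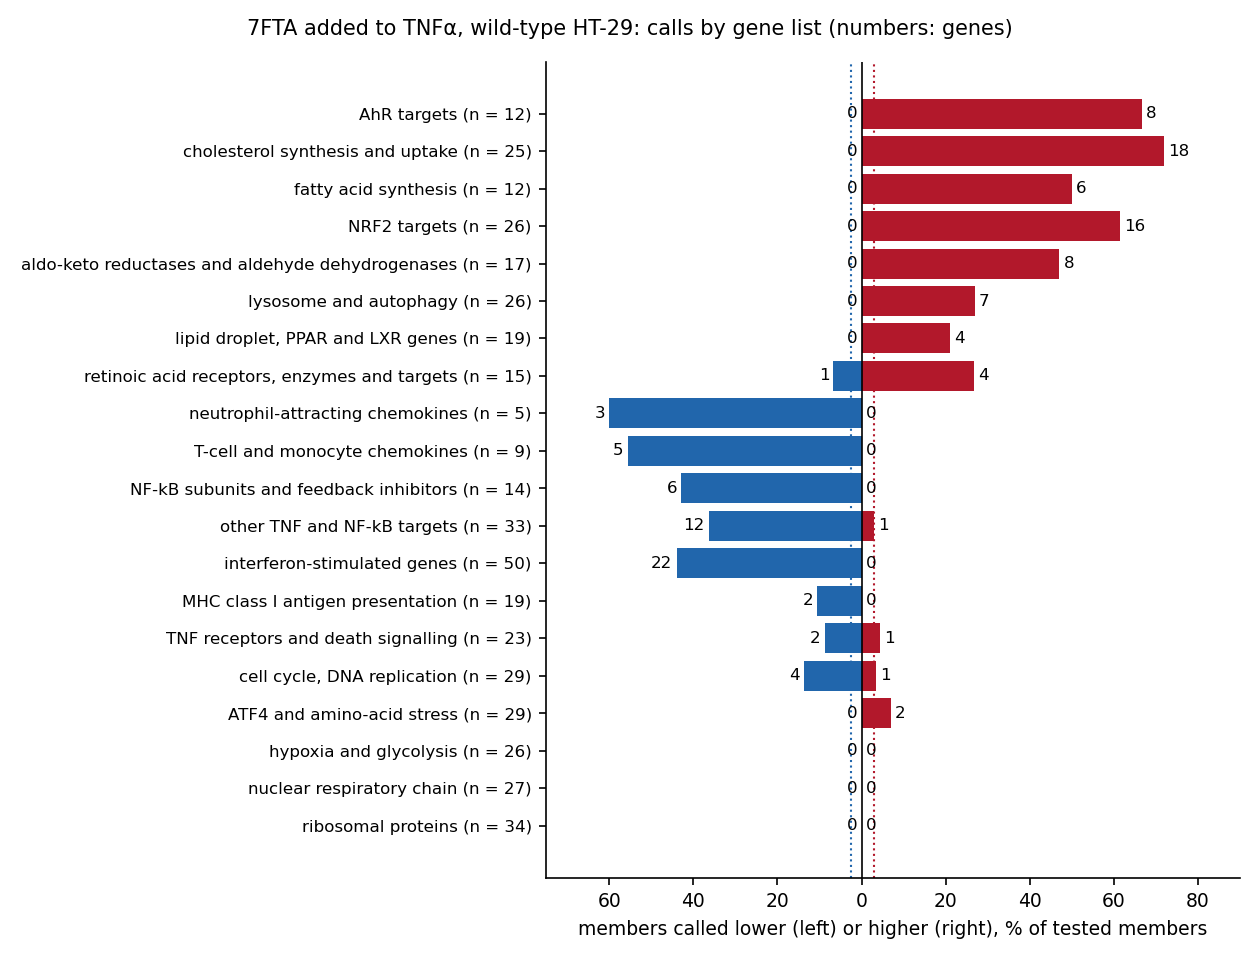
Share of tested members called lower (left) or higher (right) with 7FTA added to TNFα, in percent, for 20 gene lists. Dotted lines mark the share over all genes tested, 2.55% lower and 2.99% higher; the lists of cholesterol synthesis (18 of 25), AhR targets (8 of 12) and NRF2 targets (16 of 26) reach farthest to the right, and those of chemokines and interferon-stimulated genes (22 of 50) lie on the left.

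Part of the genes that TNFα raises were called lower when 7FTA was present. To avoid sharing libraries with the comparison, TNFα responses were taken from the knock-out cells, in which 30.9% of genes were called with TNFα against DMSO, 16.1% higher and 14.8% lower. In wild-type cells 38.4% were called, 19.5% higher and 18.9% lower, but that comparison shares the TNFα libraries and was not used to choose genes. Of 392 genes raised at least 2-fold by TNFα in knock-out cells, 85 (21.7%) were lower and 11 (2.81%) higher with 7FTA in wild-type cells. Their median log2 fold change was -0.17, and 296 were not called. Of the 61 raised at least 8-fold, 27 (44.3%) were lower and 0 higher (3 at an unadjusted p under 0.05), with a median of -0.46. The 135 genes lowered at least 2-fold by TNFα had 5 higher, 2 lower and a median of 0.05. Among 9719 genes not called with TNFα in the knock-out cells, 1.95% were higher, 1.35% lower and the median was 0.00. In bulk samples fewer cells of a type and less RNA per cell cannot be told apart.

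The 11 induced genes, of the 392, that were higher with 7FTA included SPRR1A, SPRR1B and SPRR3 (1.23, 1.17 and 1.00 on the log2 scale) and SQSTM1 (0.24). Without TNFα replicate 2, 7 were called higher. With 7FTA but no TNFα the median of the 392 genes was 0.03.

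**Figure D3:**
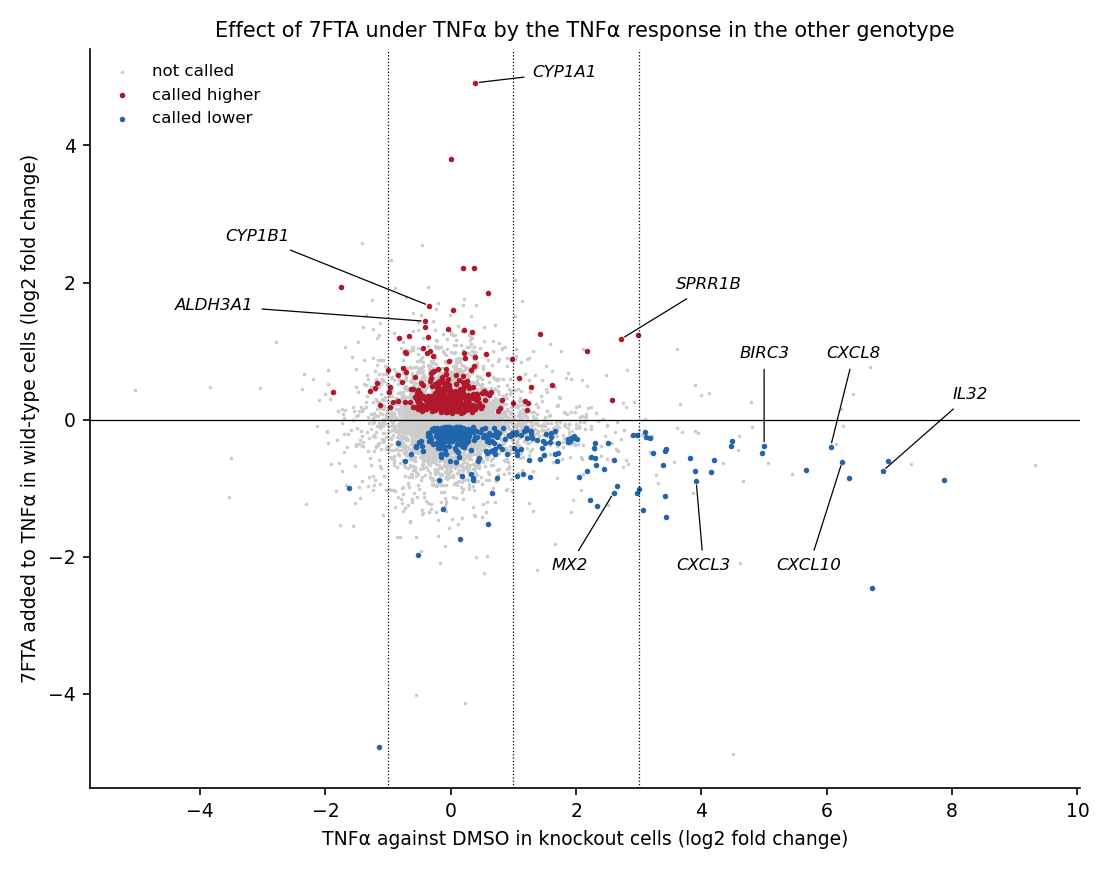
Each point is a tested gene, with the log2 fold change of TNFα against DMSO in knock-out cells on the horizontal axis and that of 7FTA added to TNFα in wild-type cells on the vertical axis, from separate libraries. Dotted lines mark log2 values of -1, 1 and 3; to the right of 3, which is 8-fold, 27 of 61 genes are called lower and 0 higher.

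CXCL1 and CXCL3, chemokines that draw in neutrophils, lie in a cluster of related genes on chromosome 4, and with IL32, a cytokine, their promoters show a loose NF-κB pattern, GGG and CC separated by any 5 bases. The 250 bases before each start are printed on the gene's own strand (RefSeq, GRCh38.p14), with matches on either strand in capitals, where overlapping matches form 1 run. CXCL1 is at chr4:73869143-73869392 on the plus strand, with matches from -128 to -78, CXCL3 at chr4:74038690-74038939 on the minus strand, from -162 to -78, and IL32 at chr16:3065153-3065402 on the plus strand, from -180 to -68.
CXCL1: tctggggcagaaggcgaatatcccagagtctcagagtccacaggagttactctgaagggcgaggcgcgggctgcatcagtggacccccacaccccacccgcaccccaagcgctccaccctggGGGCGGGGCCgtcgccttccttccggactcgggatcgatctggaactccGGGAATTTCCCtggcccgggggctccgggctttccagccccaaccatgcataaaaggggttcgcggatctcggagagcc
CXCL3: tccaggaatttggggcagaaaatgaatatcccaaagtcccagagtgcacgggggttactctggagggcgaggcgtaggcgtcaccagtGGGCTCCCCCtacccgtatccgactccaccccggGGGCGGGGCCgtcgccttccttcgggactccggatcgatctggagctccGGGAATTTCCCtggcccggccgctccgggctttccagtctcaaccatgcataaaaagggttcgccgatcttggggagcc
IL32: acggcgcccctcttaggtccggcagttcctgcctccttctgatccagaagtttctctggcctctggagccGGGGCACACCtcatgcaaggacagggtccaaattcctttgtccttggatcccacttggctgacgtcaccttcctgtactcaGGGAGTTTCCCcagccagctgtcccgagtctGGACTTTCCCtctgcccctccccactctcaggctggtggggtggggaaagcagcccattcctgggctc
The pattern was present in all 5 tested neutrophil chemokines, in 69.8% of all promoters and in 68.5% of those of genes called lower, so its presence alone is common. Of other genes called lower, the promoter of MMP7 had 0 matches, that of CXCL8 1, that of BIRC3 2 and that of CXCL10 3.

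Of these 5 chemokines 3 were lower and 0 higher, with a median of -0.56. In all 5 the libraries with 7FTA lay below those without it, against 10.4% of all genes. CXCL1 (chr4:73869393-73871242) was at 63.2, 60.6 and 55.1 CPM with TNFα and at 42.3, 42.3 and 42.8 CPM with 7FTA added (-0.49 ± 0.07, adjusted p = 4.11e-06, edgeR), and its mean with DMSO was 3.26 CPM. CXCL3 (chr4:74036589-74038807) was at 28.9, 29.2 and 27.4 CPM against 14.3, 16.1 and 15.3 CPM, which is 1.86-fold lower (-0.90 ± 0.08, adjusted p = 5.14e-11), with a mean of 1.91 CPM with DMSO. CXCL8, interleukin 8, was at 1054, 1032 and 1011 CPM against 782, 824 and 744 CPM (-0.40 ± 0.08, adjusted p = 0.00679), with a mean of 23.2 CPM with DMSO. All 3 stayed well above their level without TNFα.

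CXCL2 was at 6.16, 5.42 and 4.07 CPM against 2.89, 3.59 and 3.50 CPM, which just missed the threshold (-0.64 ± 0.20, adjusted p = 0.0508, edgeR), and CXCL6 differed by -0.56 (0.0928). Reads of CXCL1, CXCL2 and CXCL3 can be confused with one another, since the genes are close copies.

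Of 9 tested chemokines for T cells and monocytes, 5 were lower, 0 higher and all 9 had a negative value, with a median of -0.61. Leaving out replicate 1 or replicate 3 of TNFα with 7FTA left 3 called lower. CXCL10, a ligand of the T-cell receptor CXCR3, was at 16.2, 13.7 and 14.7 CPM against 10.5, 9.87 and 8.82 CPM (-0.61 ± 0.12, adjusted p = 0.00136, edgeR). CXCL11, a ligand of the same receptor, was at 7.94, 9.55 and 11.7 CPM against 5.72, 6.56 and 5.99 CPM (-0.67 ± 0.13). CCL20, which draws in CCR6-bearing lymphocytes, was at 9.05, 9.60 and 9.35 CPM against 5.11, 7.67 and 5.43 CPM (-0.61 ± 0.16). In these 3 genes no library with 7FTA reached the lowest library without it, but the call of CCL20 was lost without TNFα replicate 2 and without replicate 1 or 3 of TNFα with 7FTA. CXCL16 (-0.33) and CX3CL1 (-0.66) were the other called members, while CCL5 differed by -0.21 (adjusted p = 0.867, edgeR).

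Of 14 tested subunits and inhibitors of NF-κB, 6 were lower and 0 higher, with a median of -0.12; without TNFα replicate 1 the number called lower was 3, and NFKB1 and NFKB2 were not among them. TNFAIP3, the ubiquitin-editing inhibitor A20, was at 52.2, 56.8 and 55.6 CPM against 38.6, 45.5 and 41.5 CPM (-0.39 ± 0.07, adjusted p = 0.000156, edgeR). NFKBIA, which holds NF-κB in the cytoplasm, was at 139, 142 and 144 CPM against 119, 126 and 121 CPM (-0.22 ± 0.05). NFKB2, a subunit of the non-canonical pathway, was at 246, 235 and 227 CPM against 212, 206 and 209 CPM (-0.18 ± 0.04). Groups were separate in all 3. RELB (-0.22), BCL3 (-0.22) and NFKB1 (-0.15) were also lower, and NFKBIZ differed by 0.00 (adjusted p = 0.996, edgeR). The receptor TNFRSF1A was at 125, 118 and 119 CPM against 133, 129 and 129 CPM (0.11 ± 0.04, adjusted p = 0.103), so no difference in the receptor transcript passed the test.

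Among 33 other TNF and NF-κB targets, 12 were lower and 1, SQSTM1, was higher, with a median of -0.20; 28 of the 33 were negative. IL32 (chr16:3065297-3082192) was at 65.6, 59.7 and 69.5 CPM with TNFα and at 36.4, 40.5 and 38.5 CPM with 7FTA added. The groups were separate, and the level was 1.68-fold lower (-0.75 ± 0.07, adjusted p = 1.25e-10, edgeR), against a mean of 0.477 CPM with DMSO. BIRC3, an inhibitor of apoptosis in the TNF receptor complex, was at 140.3, 140.4 and 149 CPM against 116, 109 and 105 CPM (-0.38 ± 0.04). ICAM1, which binds leukocyte integrins, was at 102, 99.0 and 97.8 CPM against 82.9, 81.5 and 76.4 CPM (-0.31 ± 0.05). SOD2, the mitochondrial superoxide dismutase, was at 138, 136 and 137 CPM against 118, 124 and 114 CPM (-0.20 ± 0.05). None of these genes overlapped between the groups.

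MMP7, PI3 and LCN2, which encode secreted proteins, were also called lower. At least MMP7 and LCN2 are already counted in the list of 33 above. MMP7 (chr11:102520508-102530753), the matrix protease matrilysin, was at 970.1, 982 and 1062 CPM against 676, 640.1 and 693 CPM (-0.58 ± 0.04, adjusted p = 2.18e-17, edgeR), with a mean of 136 CPM with DMSO. PI3, the elastase inhibitor elafin, was at 38.3, 39.8 and 37.3 CPM against 22.9, 24.3 and 22.2 CPM (-0.73 ± 0.08). LCN2, which binds bacterial siderophores, was at 151, 152 and 153 CPM against 104, 119 and 108 CPM (-0.46 ± 0.04), close to its mean of 107 CPM with DMSO. The 3 genes were separate between the groups. Of 20 claudins and tight-junction genes, 1 (5.0%) was higher and 3 (15.0%) lower, against 2.99% and 2.55% over all genes. CLDN4 was higher (0.13), and CLDN1 (-0.42), CLDN2 (-0.24) and PARD3 (-0.18) were lower. The calls of CLDN4 and PARD3 were lost without TNFα replicate 3, and that of PARD3 also without replicate 3 of TNFα with 7FTA.

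**Figure D4:**
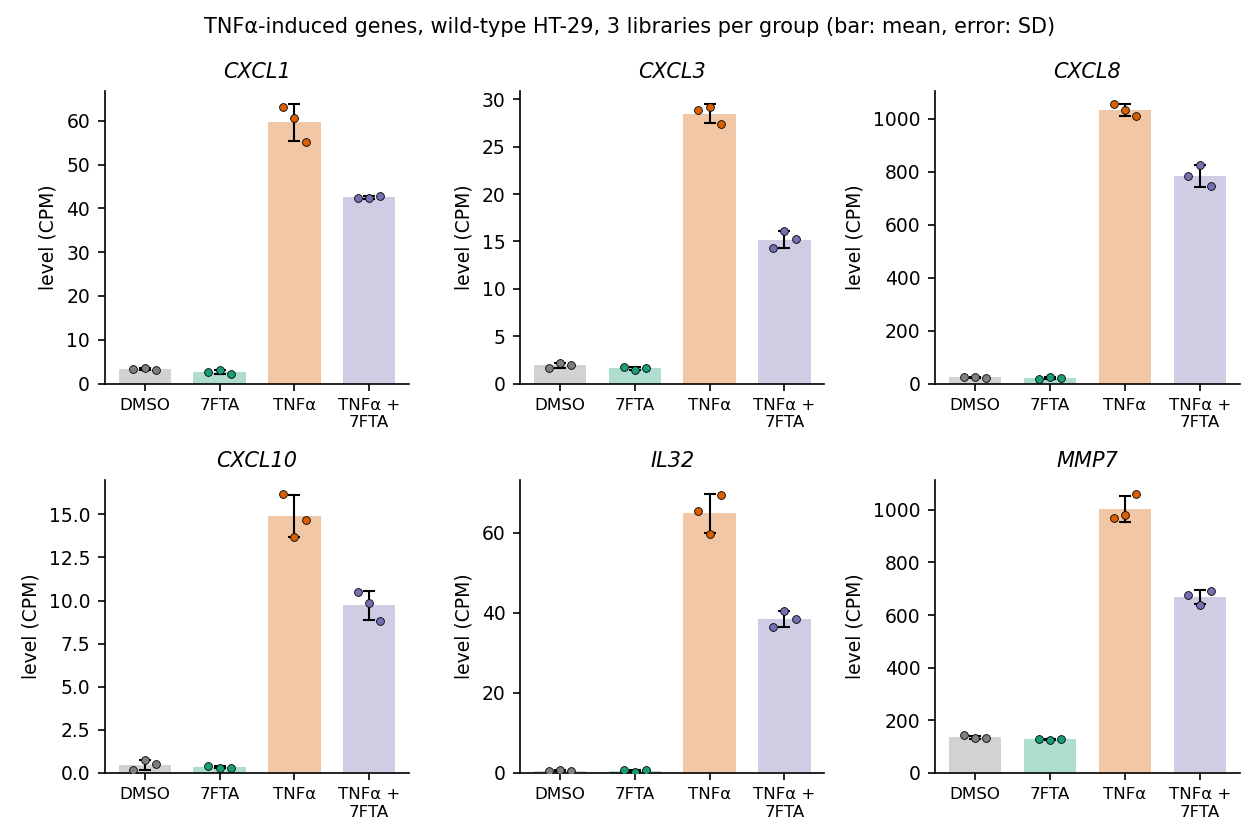
Levels in CPM (vertical axes, linear and starting at 0) of CXCL1, CXCL3, CXCL8, CXCL10, IL32 and MMP7 in the 4 wild-type groups. Points are libraries, bars the mean of 3 and error bars the SD. TNFα with 7FTA lies between the low levels without TNFα and the level with TNFα alone, as for CXCL3 at 14.3 to 16.1 CPM against 27.4 to 29.2 CPM.

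Of 50 tested interferon-stimulated genes, 22 were lower, 0 higher and 28 not called, with a median of -0.28. The number of calls depended on single libraries. Of the 50 values 45 were negative, against 7019 of 14059 over all genes. In 31 of the 50 the libraries with 7FTA lay below those without it, against 10.4% of all genes. Leaving out TNFα replicates 1, 2 or 3 left 15, 9 and 8 called lower, and leaving out replicates 1, 2 or 3 of TNFα with 7FTA left 18, 13 and 10. HERC6, a ubiquitin ligase, was at 16.1, 14.8 and 16.4 CPM against 10.9, 10.6 and 12.1 CPM (-0.49 ± 0.09, adjusted p = 0.000327, edgeR). IFI44 was at 13.5, 12.9 and 12.9 CPM against 9.04, 9.20 and 7.57 CPM (-0.60 ± 0.13). MX2, a GTPase that blocks entry of viral genomes to the nucleus, was at 8.06, 8.32 and 7.04 CPM against 4.55, 3.11 and 3.67 CPM (-1.07 ± 0.28, adjusted p = 0.031). The 3 genes were separate between the groups. The call of MX2 was lost with no filter, without any 1 of the TNFα replicates and without replicate 2 or 3 of TNFα with 7FTA.

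EIF2AK2, the kinase PKR that halts translation on double-stranded RNA, was at 77.6, 78.3 and 82.4 CPM against 71.1, 64.3 and 66.6 CPM (-0.24 ± 0.05). IFIT1 was at 9.42, 9.98 and 9.53 CPM against 9.48, 7.09 and 7.80 CPM, an overlap, and differed by -0.26 (adjusted p = 0.452, edgeR). Of 13 IRF and STAT genes 1 (7.69%) was lower and 0 higher, against 2.55% lower and 2.99% higher over all genes.

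Of 19 genes of MHC class I presentation, 2 (10.5%) were lower, against 2.55% over all genes, and 0 higher. All 19 values were below 0, with a median of -0.11. TAP1, a peptide transporter, was at 66.0, 66.5 and 69.7 CPM against 56.3, 54.9 and 56.1 CPM (-0.27 ± 0.05), and PSMB9, an immunoproteasome subunit, at 10.2, 7.94 and 9.71 CPM against 5.6, 7.23 and 7.12 CPM (-0.46 ± 0.12). Both were separate between the groups, but the 2 genes overlap in the annotation, and without a stated strand setting their reads cannot be assigned with certainty. The call of PSMB9 was lost without TNFα replicate 1 or 3 and without replicate 1 of TNFα with 7FTA. CD274, the checkpoint ligand PD-L1, was at 5.54, 5.2 and 4.55 CPM against 3.81, 2.97 and 3.56 CPM (-0.57 ± 0.17, adjusted p = 0.0282, edgeR). It was the 1 called of 9 checkpoint ligands (11.1%, against 5.54% called over all genes). DESeq2 called 0 of the ligands. The CD274 call was also lost with no filter, without TNFα replicate 1 or 2 and without replicate 2 or 3 of TNFα with 7FTA.

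Of 8 tested genes of prostaglandin synthesis and receptors, 2 (25.0%) were higher, 1 (12.5%) lower and 5 not called. Over all genes 2.99% were higher and 2.55% lower. Of the 8 values 7 were positive. The member with a negative value, PTGS2, which encodes the inducible cyclooxygenase COX-2, was at 202, 203 and 203 CPM against 175, 167 and 167 CPM (-0.26 ± 0.05, adjusted p = 0.0002, edgeR). HPGD, which breaks prostaglandins down, was at 33.7, 32.2 and 35.4 CPM against 52.7, 46.1 and 44.3 CPM (0.50 ± 0.09), and PTGS1, the constitutive cyclooxygenase, at 4.92, 3.86 and 4.37 CPM against 6.46, 5.89 and 6.84 CPM (0.55 ± 0.16). None of the 3 overlapped between groups, and the call of PTGS1 was lost without TNFα replicate 2 or 3 and without replicate 1 or 3 of TNFα with 7FTA.

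Other lists had at most 5 called members. By edgeR and by DESeq2, 0 members were called among 26 hypoxia genes, 27 respiratory chain genes, 34 ribosomal protein genes, 13 mitochondrially encoded genes and 7 metallothioneins. At an unadjusted p under 0.05 (edgeR) these lists held 2, 1, 0, 0 and 1 members. The lists that follow are read against 2.99% higher and 2.55% lower over all genes. Of 24 genes of mitosis 0 were higher and 2 (8.33%) lower, of 29 genes of DNA replication 1 (3.45%) and 4 (13.8%), of 21 p53 targets 2 (9.52%) and 1 (4.76%), and of 23 TNF receptor and cell death genes 1 (4.35%) and 2 (8.7%). Of 29 ATF4 targets 2 (6.9%) were higher, among them TRIB3, a pseudokinase of the stress response, at 51.5, 49.5 and 54.8 CPM against 68.9, 76.4 and 77.6 CPM (0.52 ± 0.05). Of 20 endoplasmic reticulum stress genes 1 was higher and of 12 heat shock genes 1 (8.33%) lower. Of 24 immediate-early genes 0 were higher and 2 (8.33%) lower, and of 19 stem-cell and Wnt genes 0 were higher and 3 (15.8%) lower.

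The same compound without TNFα gave 288 called genes in wild-type cells, 2.05% of those tested, 203 (1.44%) higher and 85 (0.605%) lower. This comparison uses other libraries. Of the 288 genes 154 (53.5%) were also called with 7FTA added to TNFα, which is 19.8% of the 779 called there. In 150 of the 154 the direction was the same, 113 higher and 37 lower, and the other 4 genes, PTGS2, BIRC3, SMAD3 and KRT17, were higher without TNFα and lower with it. AhR targets were higher in 8 of 12, cholesterol genes in 11 of 25 and NRF2 targets in 9 of 26 without TNFα. Of the neutrophil chemokines, the T-cell and monocyte chemokines and the NF-κB subunits, 0 were called without TNFα by edgeR and by DESeq2, with 0, 2 and 2 members at an unadjusted p under 0.05 (edgeR). CYP1A1 rose by a count ratio of 72.3 (95% interval 40.2 to 146.0) without TNFα. VIPR1 had a mean of 30.1 CPM with DMSO, 60.8 CPM with 7FTA, 13.9 CPM with TNFα and 31.7 CPM with both.

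The difference between the 7FTA effects with and without TNFα was tested as an interaction, and 39 genes (0.277%) passed, 11 (0.0782%) with a higher and 28 (0.199%) with a lower effect in the presence of TNFα. Of the 28, 16 were among the genes that TNFα raised at least 2-fold in knock-out cells, a class of 392 among all 14059 genes tested. PTGS2 was at 29.4, 26.6 and 33.3 CPM with DMSO and 42.9, 39.6 and 40.4 CPM with 7FTA (0.45 ± 0.06), and fell by 0.26 when TNFα was present. The difference of the effects was -0.71. BIRC3 was at 5.22, 5.01 and 4.93 CPM with DMSO and 6.75, 6.23 and 6.61 CPM with 7FTA, a rise of 0.38 (adjusted p = 0.0224, edgeR), and fell by 0.38 with TNFα. For KRT17, a keratin of injured epithelium, the means were 7.80 CPM with DMSO, 9.97 CPM with 7FTA, 22.2 CPM with TNFα and 16.2 CPM with both. These 3 genes therefore had called changes of opposite sign in the 2 settings.

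Of the antigen-presentation genes TAPBP, ERAP1 and ERAP2, each rose with 7FTA alone and none passed the test with TNFα. TAPBP, which loads peptide onto MHC class I, had means of 72.0 CPM with DMSO, 84.4 CPM with 7FTA, 264 CPM with TNFα and 252 CPM with both. MMP7 (-0.50), LCN2 (-0.38), SDC4 (-0.42) and NFKBIA (-0.34) had negative differences of the effects with no called change without TNFα.

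The 11 genes with a higher 7FTA effect under TNFα included ALDH3A1, AKR1C1, AKR1C2, AKR1B10, EPHX1 and FTL, which detoxify or store iron, and TFRC, the transferrin receptor. AKR1C2 had means of 3.32 CPM with DMSO, 4.48 CPM with 7FTA, 3.35 CPM with TNFα and 8.32 CPM with both, and the difference of the effects was 0.91. This call ended in 8 of the fits that left out a library, that of AKR1C1 in 6 alternatives and that of AKR1B10 in 2. FTL had means of 2649 CPM with DMSO, 2794 CPM with 7FTA, 2497 CPM with TNFα and 3197 CPM with both; its change was 0.08 without TNFα (adjusted p = 0.335) and 0.36 with it, a difference of 0.28 (adjusted p = 0.00122, edgeR). AKR1B10 had means of 76.7 CPM with DMSO, 101 CPM with 7FTA, 57.0 CPM with TNFα and 108 CPM with both.

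**Figure D5:**
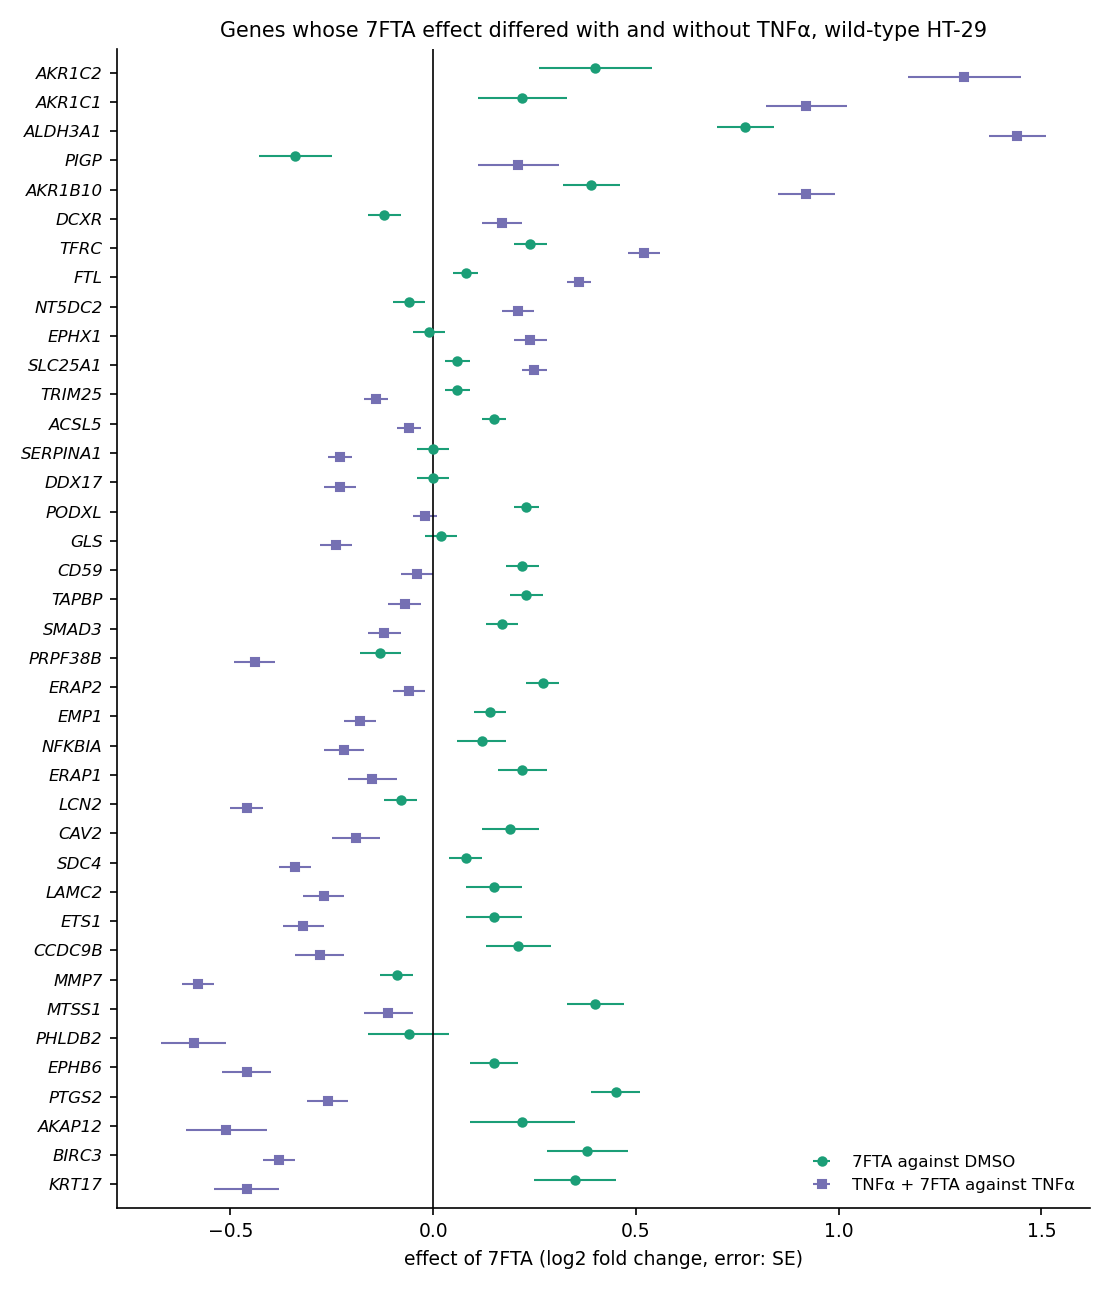
Log2 fold change with 7FTA, without TNFα (7FTA against DMSO) and with TNFα (both against TNFα alone), for the 39 genes whose effects differed in wild-type cells; bars are the SE. PTGS2, BIRC3 and KRT17 lie above 0 without TNFα and below 0 with it, and ALDH3A1 rises in both settings, by 0.77 and 1.44.

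In GPRC5A knock-out cells, 7FTA added to TNFα gave 1057 called genes (7.52%), 561 (3.99%) higher and 496 (3.53%) lower, in other libraries. Of these 458 (43.3%, and 58.8% of the 779) were called in both genotypes, all in the same direction, 249 higher and 209 lower. CYP1A1 rose by a count ratio of 30.6 (95% interval 16.4 to 64.4) in the knock-out cells, and CXCL3 fell by 0.86 on the log2 scale, against 0.90 in wild-type cells. Of the 50 interferon-stimulated genes 45 were lower in the knock-out cells and 22 in wild-type cells, or 8 without wild-type TNFα replicate 3. The test of a difference between the genotypes called 3 of the 50, so the 2 counts alone do not show a genotype difference. TNFα against DMSO raised this list by a median of 1.41 (log2) in knock-out cells and 0.61 in wild-type cells. The part of that in the counts was not tested.

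The genotypes' 7FTA effects differed by test in 9 genes (0.064%), 7 (0.0498%) with a higher and 2 (0.0142%) with a lower value in wild-type cells. IFIT3 was at 49.8, 53.5 and 45.7 CPM with TNFα and at 31.3, 34.1 and 33.2 CPM with 7FTA added in knock-out cells and at 11.3, 13.4 and 14.7 CPM against 13.6, 12.3 and 15.3 CPM in wild-type cells, where the groups overlapped (difference 0.65, adjusted p = 0.0255, edgeR). ADGRF1 had the larger rise in knock-out cells, where it was at 7.17, 8.78 and 7.51 CPM against 26.7, 30.3 and 27.8 CPM (difference -0.66). No gene was called in this test without knock-out TNFα replicate 2, without replicate 1 of knock-out TNFα with 7FTA, or without wild-type TNFα replicate 1, so these differences depended on single libraries.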

How the data were processed

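Gene counts of 24 poly(A) RNA libraries were used, of which the 6 wild-type libraries with TNFα, without or with 7FTA, form the comparison. Per the labels, the authors deposited raw counts per gene in 1 merged table. Tools listed in the submitters' processing notes, with no role given, are DESeq2 1.20.0, STAR 2.6.1d and featureCounts 1.6.4, with the build GRCh38. The annotation release and the strand setting are not given in the sources used here, so reads of overlapping or near-identical genes may be misplaced. The table held 60623 genes, 30061 with a count in some library.

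Groups and replicate numbers came from the sample titles. With R 4.3.3 and edgeR 4.0.16, genes with low counts were removed (filterByExpr over the 8 groups), which left 14059. After TMM scaling, all 24 libraries entered a robust quasi-likelihood fit by group, with no covariate (common biological coefficient of variation 4.06%). Contrasts were tested on both sides, with Benjamini-Hochberg adjustment over all tested genes; a gene is called at an adjusted p under 0.05. The SE was obtained from the size of the log2 fold change and the F statistic. DESeq2 1.42.0, other normalization, no filter, the compared groups alone, a replicate block and leaving out each library were the alternatives. Intervals of count ratios are exact at 95% and cover counting error only; reads carried no molecular identifiers. Depth per library was 16782857 to 27247407 counts, and genes with few reads are given as counts. On simulated counts with known changes of 0.5 and 1 on the log2 scale, the comparison recovered 70% and 79% of the changed genes, with 3.25% false calls. The interaction with TNFα recovered 59% and 73%, with 8.33% false calls. The genotype interaction recovered 60% and 73%, with 5.67% false calls. Replicates of a group differed by more than sampling noise (chi-square per degree of freedom 2.07 to 5.53), so none was merged. To look for pairing, the group mean of each gene was subtracted from the log2 CPM of each library. The remaining deviations of same-numbered samples of the 2 groups correlated at 0.0439, 0.0868 and 0.0107, so the numbers were not taken to pair samples.

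Positions are from GENCODE 29 (GRCh38) by gene identifier, and promoters are RefSeq sequences (GRCh38.p14), matched by symbol for 10068 tested genes. The libraries, the 45 gene lists and the comparisons were chosen with earlier results of these data known, so counts over lists are descriptions. Named genes were GPRC5A, all AhR targets, the 20 largest increases and 20 largest decreases among called, non-overlapping genes with a mean log2 CPM of at least 1, the members with the smallest p of each list, up to 4, and the strongest genes of each interaction; other genes of a list are named as members with their values. Some genes that the rule names are not reported here.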

Additional observations from a re-analysis of the deposited data

Results flagged for a closer look

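In wild-type cells the effect of 7FTA differed with and without TNFα, by the edgeR interaction test, in the genes that follow; values are the log2 fold change with TNFα minus that without. The difference was positive for AKR1C2 (0.91), AKR1C1 (0.70), ALDH3A1 (0.67), PIGP (0.55), AKR1B10 (0.53) and FTL (0.28). The call ended in 10 alternatives for PIGP, 8 for AKR1C2, 6 for AKR1C1 and 2 for AKR1B10, most of them fits that left out a library. PIGP, a subunit that makes glycolipid anchors, was at 11.3, 10.9 and 9.95 CPM with TNFα and 13.2, 11.8 and 12.2 CPM with 7FTA added (0.21, adjusted p = 0.253), and fell by 0.34 without TNFα (adjusted p = 0.0232).

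The difference was negative for KRT17 (-0.81), BIRC3 (-0.76), AKAP12 (-0.74), PTGS2 (-0.71), EPHB6 (-0.61), MMP7 (-0.50), SDC4 (-0.42), LCN2 (-0.38), NFKBIA (-0.34) and EMP1 (-0.33); the call of AKAP12 ended in 7 fits that left out a library. AKAP12, a scaffold for protein kinases, was at 27.5, 26 and 29.5 CPM with TNFα and 22.7, 18.0 and 17.5 CPM with 7FTA added, and its means were 6.15 CPM with DMSO and 7.15 CPM with 7FTA. EPHB6, a receptor of the ephrin family, was at 77.9, 80.5 and 73.3 CPM against 55.7, 50.2 and 62.8 CPM, with means of 68.4 and 76.0 CPM without TNFα.

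The effect of 7FTA in the presence of TNFα differed between the genotypes, given as wild type minus knock-out, for IFIT3 (0.65), IFIT5 (0.51), DDX60L (0.45), TGFBI (0.40), PLSCR1 (0.37), EMP1 (-0.28) and ADGRF1 (-0.66). IFIT5 was at 18.8, 17.6 and 17.4 CPM against 18.6, 17.9 and 18.5 CPM in wild-type cells and at 38.6, 37.8 and 33.3 CPM against 25.7, 27.4 and 25.3 CPM in knock-out cells. TGFBI, a matrix protein, rose by 0.35 in wild-type cells and differed by -0.05 in knock-out cells (adjusted p = 0.686, edgeR). With single libraries left out these genotype calls fell to 0, as given in the report.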

How the results depend on the processing

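Called genes for 7FTA added to TNFα numbered 779, 700 with DESeq2, 788 with RLE factors, 748 with no filter, 690 from the compared groups alone and 503 to 717 with 1 library left out. Of the 779, 291 were called under every alternative. Leave-one-out counts ran from 190 to 219 for 7FTA without TNFα (288 with all libraries) and from 719 to 1085 in knock-out cells (1057), where the compared groups alone gave 668. The interaction with TNFα (39) ran from 22 to 62 on leaving out a library and gave 65 with no filter. The genotype interaction (9) ran from 0 to 11, with 24 under no filter and 2 from the compared groups alone. With 1 library left out, lists called lower ran from 3 to 5 for T-cell and monocyte chemokines, 3 to 6 for NF-κB subunits, 8 to 18 for interferon-stimulated genes and 61 to 77 for TNFα-induced genes, of which 7 to 12 were called higher, and lists called higher ran from 6 to 8 for AhR targets, 15 to 17 for cholesterol genes and 13 to 16 for NRF2 targets. Under the other alternatives interferon-stimulated genes ran from 22 to 26 called lower, and TNFα-induced genes from 78 to 97 called lower and 11 to 15 higher. A replicate block gave 975 called genes for 7FTA added to TNFα, 62 for the interaction with TNFα and 18 for the genotype interaction. The replicate numbers are not known to pair samples. Over all 28 pairs of groups, the deviations of same-numbered samples from their group means correlated at -0.0649 to 0.119. No called gene among those named changed direction. Values that changed sign were all uncalled. With 1 library left out, GPRC5A ran from -0.04 to 0.02, AHR from -0.05 to 0.05 (0.04 and 0.05 where positive), AHRR from -0.26 to 0.12 (0.05, 0.10 and 0.12 where positive) and IFIT3 from -0.03 to 0.14. MT-CYB ran from -0.31 to 0.21 and MT-ND1 from -0.35 to 0.29, positive only without TNFα replicate 2. The cause was not tested, apart from fewer libraries giving fewer degrees of freedom. The low counts of CYP1A1, CYP1A2 and IFI44L with TNFα limit the precision of their fold changes.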

Other observations

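The following families were put together after the values were seen, by symbol, and are descriptions only. Their counts are read against all genes tested, 2.99% higher and 2.55% lower in wild-type cells and 3.99% and 3.53% in knock-out cells. Of all 14059 values in wild-type cells, 7039 were positive and 7019 negative. Of 34 subunits of the 26S proteasome, which degrades tagged proteins, 5 were higher and 0 lower with 7FTA added to TNFα, and 31 of the 34 had a positive value. PSMC2, a subunit of the regulatory particle, had means of 223 CPM with TNFα and 255 CPM with 7FTA added (log2 fold change 0.19), and PSMD3 rose by 0.17. In knock-out cells 9 were higher and 0 lower. All 4 LPCAT genes, which encode acyltransferases that remodel phospholipids, were higher, by 0.15 for LPCAT1, 0.21 for LPCAT2, 0.21 for LPCAT3 and 0.20 for LPCAT4.

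Some genes of RNA processing were called lower, though most members of each family were not called. Of 11 SRSF splicing factors 4 were lower and 0 higher, led by SRSF2 at 515, 512 and 524 CPM with TNFα against 428, 425 and 419 CPM with 7FTA added (-0.29, adjusted p = 8.48e-09, edgeR). Of 13 PRPF pre-mRNA processing factors 5 were lower, with PRPF38B at 75.1, 85.8 and 84.1 CPM against 61.0, 59.5 and 59.7 CPM (-0.44). Of 29 HNRNP genes 5 (17.2%) were lower and 25 negative. Of 44 nucleolar and ribosome biogenesis genes 8 (18.2%) were lower and 35 negative, against 2.55% lower over all genes. NOP58, a core protein of small nucleolar particles, had means of 249 CPM and 219 CPM (-0.19). In knock-out cells 11 HNRNP genes (37.9%) and 13 nucleolar genes (29.5%) were lower, with 0 higher in either family. Of all genes 3.53% were lower there.

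One uncharacterised gene, AC008038.1, was called lower on the strength of a single library: its counts were 61, 365 and 63 with TNFα and 40, 54 and 57 with 7FTA added. The call was lost in 6 alternatives. These were no filter, the compared groups alone, leaving out TNFα replicate 2, and leaving out any 1 replicate of TNFα with 7FTA.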
